A study of Saccharomyces cerevisiae with 36 samples.

Results

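The 48 ribosome biogenesis genes of budding yeast are described here across the 18 strains of an expression series on the NuB4 histone acetyltransferase complex. They were taken as a fixed list of 48 symbols, chosen by function with earlier results of these arrays known, out of 6388 yeast probes that carry 5315 gene symbols. Each of the 48 was represented by 1 probe, whose signal stood above background in both channels on 36 of 36 arrays. UTP15 was left out by the same list because its spot failed on some arrays. The signal of the 48 probes, averaged over all arrays, lay between percentile 28.4 and percentile 95.1 of all probes, with a median at percentile 76.5.

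Ribosome assembly starts in the nucleolus, where RNA polymerase I makes a long precursor RNA that is modified by small nucleolar RNPs and packed by the small subunit processome. RNA helicases remodel the particles, separate sets of assembly factors build the large subunit, and late factors release both subunits to the cytoplasm. In growing yeast the genes of this machinery form one of the best known co-regulated groups, high when nutrients are plentiful and low in stress and stationary phase. The 48 genes comprised 5 proteins of box C/D and H/ACA snoRNPs and nucleolin, 9 members of the UTP modules of the processome, 7 other small subunit factors, 9 DEAD-box RNA helicases, 15 large subunit factors and 3 factors of large subunit maturation and export.

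RNA of each strain was hybridised on 2 dual-channel arrays of long oligonucleotides against a common wild-type reference RNA, with the dyes exchanged between replicates a and b. All values below are log2 ratios of strain over reference or differences between such ratios, so they compare a gene with itself and not with other genes. The 8 strains of the G0 experiment (16 arrays) were starved in rich medium; they were wt-starved, its hat1Δ, hat2Δ, hif1Δ, hat1Δhif1Δ and hat2Δhif1Δ derivatives, and hhf2 mutants in which lysines 5 and 12 of histone H4 were replaced by glutamine (H4K5,12Q) or arginine (H4K5,12R). The 3 mid-log strains of the RITE experiment (6 arrays) were wt-rite, with untagged H3, wt-rite-H3-HA and wt-rite-H3-T7, and the 7 mid-log strains of the NuB4 experiment (14 arrays) were the single, double and triple deletions of HAT1, HAT2 and HIF1 in BY4742. Hat1 is the histone acetyltransferase, Hat2 its histone-binding partner and Hif1 a histone chaperone.

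RITE, recombination-induced tag exchange, swaps an epitope tag on histone H3 by means of a Cre recombinase fused to an oestrogen-binding domain and driven by the TDH3 promoter. The labels do not name an entry of the study's strain table, but the study's legends do. The entries given there for the RITE and G0 strains are MATa or derive from a MATa entry, lack the HHT1-HHF1 copy of the H3 and H4 genes, carry Cre and list BAR1 as deleted or disrupted, and those of the G0 strains have the HA-to-T7 cassette on HHT2. The study's methods harvest the starved cultures as in its turnover experiments, in which estradiol induces the tag switch. The strain labels give neither estradiol nor the tag state of the G0 strains. The sample labels name BY4742, a MATα strain, for every array. The MATa-specific genes other than BAR1 (4 genes) nevertheless had array means of 3.73 to 4.77 in the RITE and G0 strains, against -0.08 to 0.02 in the NuB4 strains. BAR1 itself read 2.02 to 3.31 on the RITE and G0 arrays and -0.13 to 0.04 on the NuB4 arrays, which goes against a loss of its transcript, and whether its probe lies in the disrupted stretch is not known here. The deleted HAT1, HAT2 and HIF1 genes were lower on every array of a strain labelled as deleted than on every other array of the same experiment.

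The following features of the whole series bear on the values. The median strain signal was 5.34 to 12 times background, and replicates a and b of a strain correlated across probes at 0.961 to 0.983 in G0, 0.916 to 0.963 in RITE and 0.679 to 0.818 in NuB4. By the ATG33 spot the arrays fell into 2 sets, which are inferred here from this spot alone and are not named in the strain labels. On the arrays of starved wild type, hat1Δ, hat2Δ and hif1Δ and of the 3 mid-log RITE strains this spot was at background. On those of starved hat1Δhif1Δ, hat2Δhif1Δ and both H4 mutants it stood 12.1 to 37.4 times above it in the strain channel. On the 14 NuB4 arrays it stood 4.51 to 8.45 times above background in that channel, so the 20 mid-log arrays include both kinds. Both arrays of a strain share a number in their labels and differ by letter and dye, and although the methods describe 4 profiles from 2 separately started cultures for each mutant, nothing says whether a and b come from different ones. The p-values below therefore rest on array-to-array spread alone, which may be technical. For starved cultures the study itself ran no genome-wide statistics, which it put down to variability under starvation.

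In starved cells the ribosome biogenesis genes were low as a group, and 4 of the 5 snoRNP and nucleolin genes were among the 5 lowest. Relative to the 3 mid-log RITE strains, 46 of the 48 genes were called lower in starved wild type, 1 was called higher and 1 was not called (limma, adjusted p under 0.05). Of all 6388 probes, 38.2% were called lower and 40% higher in this comparison. The members' median change was -1.23, a 2.34-fold lower ratio, against 0.01 over all probes. Of the members 31 were more than 2-fold lower, as were 11.1% of all probes, and 3 were more than 4-fold lower, as were 1.57% of all probes. The arrays of the 2 states did not overlap for 46 members that were lower and 1 that was higher; over all probes such separation was found for 36.9% downward and 38.8% upward. A ratio compares shares of each sample's RNA, so fewer transcripts per cell and a shift in the rest of the RNA cannot be told apart. Growth phase, medium, RNA extraction protocol and strain also differed between these groups and cannot be told apart. Estradiol treatment and the H3 tag after the switch may differ as well, and they cannot be told apart from starvation either. The labels name the G0 protocol after robotic amplification and the mid-log protocol HTP.

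**Figure D1:**
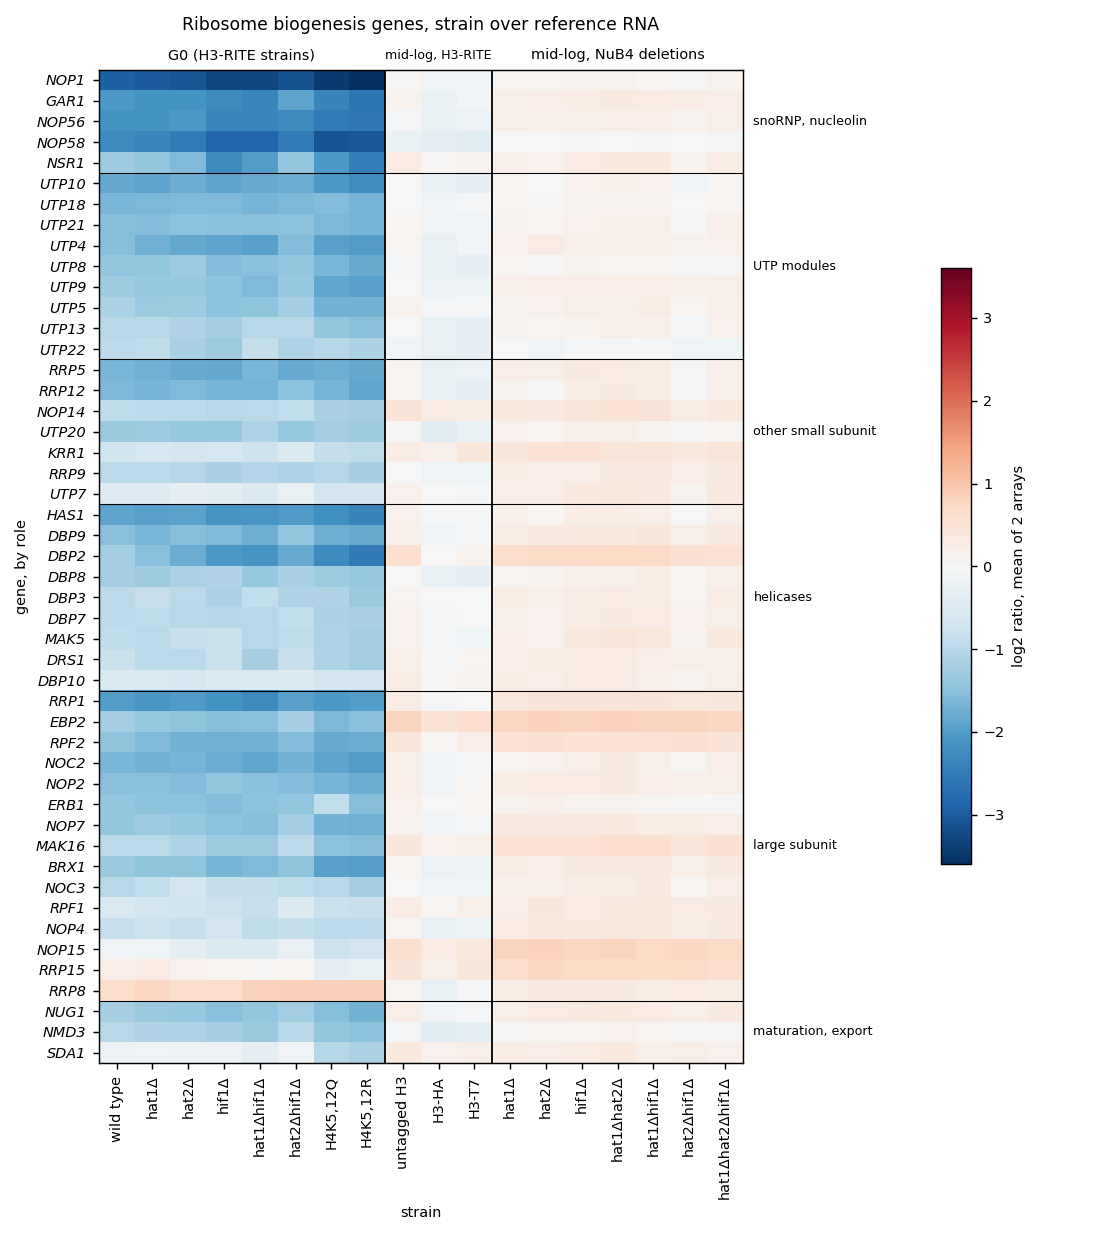
Mean log2 ratio of strain over reference (colour scale, 2 arrays per strain) for the 48 genes, in rows by role, and the 18 strains, in columns by experiment. The 8 G0 columns are blue in almost every row, with NOP1 darkest and RRP8 red, while the mid-log columns are pale.

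The proteins of the snoRNPs, which guide and catalyse modification of the precursor RNA, had the lowest median of the 6 role groups, -1.99, and all 5 were called lower. NOP1, the fibrillarin methyltransferase of box C/D snoRNPs, stood at -3.32 and -2.58 on the arrays of starved wild type. On the 6 mid-log RITE arrays it was at -0.09 and 0.20 (untagged), -0.13 and -0.09 (H3-HA), and -0.15 and -0.02 (H3-T7). Both starved arrays thus lay far below all mid-log arrays, although they differed from each other by more than the mid-log arrays did. The change was -2.90 ± 0.15 (SE, n = 2 and 6 arrays; adjusted p = 5.7e-09), or 7.48-fold lower, the lowest of all members. GAR1, a core protein of H/ACA snoRNPs, which guide pseudouridylation, read -2.32 and -1.84 in starved wild type, and its mid-log arrays read 0.13 and 0.12 (untagged), -0.10 and -0.38 (H3-HA), and -0.10 and -0.12 (H3-T7). There was no overlap, and the change was -2.003 ± 0.13 (adjusted p = 3.24e-08). The box C/D core proteins NOP56 and NOP58 changed by -1.99 and -1.97. NSR1, the yeast nucleolin, changed by -1.47 with the widest error of the group (SE 0.31).

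The small subunit processome was lower throughout. All 9 genes of the UTP-A, UTP-B and UTP-C modules, which bind the precursor RNA early, were called lower, with a median of -1.23 and a range from -1.65 (UTP10) to -0.72 (UTP22). The 7 other small subunit factors were called lower too, with a median of -1.14. Among them RRP5, which acts in both subunits, was at -1.52 and UTP7 at -0.51. The 9 DEAD-box helicases were all called lower and had a median of -0.999. HAS1, which acts in both subunits, was lowest at -1.91 and DBP10, a large subunit helicase, least changed at -0.65. DBP2, a helicase with roles in ribosomal RNA processing and in the packing of messenger RNA, read -1.39 and -1.07 in starved wild type. The mid-log arrays of DBP2 read 0.53 and 0.61 (untagged), 0.15 and -0.14 (H3-HA), and 0.25 and 0.02 (H3-T7). The starved and growing arrays were well apart, and the change was -1.47 ± 0.21 (adjusted p = 3.4e-05).

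The 15 large subunit factors were the least uniform group: 13 were called lower, 1 higher and 1 was not called, with a median of -1.23. RRP1, an early large subunit factor, read -2.23 and -1.81 in starved wild type, against 0.21 and 0.33 (untagged), 0.06 and -0.22 (H3-HA), and 0.04 and -0.03 (H3-T7) in mid-log cells. Its ranges were apart by over 1 log2 unit, and the change was -2.08 ± 0.16 (adjusted p = 1.39e-07), or 4.24-fold. EBP2, RPF2 and NOC2, all of large subunit precursors, followed at -1.89, -1.71 and -1.66. NOP2 and ERB1 were at -1.57 and -1.46; NOP2 methylates the large subunit RNA and Erb1 forms a complex with Nop7.

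RRP8, a nucleolar methyltransferase of the large subunit RNA, went the other way. It read 0.64 and 0.60 in starved wild type, and in mid-log cells 0.05 and 0.12 (untagged), -0.04 and -0.47 (H3-HA), and -0.03 and -0.13 (H3-T7). The starved arrays were above all 6 mid-log arrays, with a change of 0.70 ± 0.09 (adjusted p = 1.79e-05). The size depended on the normalization: with the authors' normalized ratios the change was 0.22 (adjusted p = 0.0246). RRP15, needed for maturation of the large subunit RNA, read 0.17 and 0.33 starved, against 0.37 and 0.54 (untagged), 0.27 and 0.14 (H3-HA), and 0.38 and 0.41 (H3-T7). These ranges overlapped and the change of -0.11 ± 0.10 was not called (adjusted p = 0.331); it was 0.04 without replicate a of starved wild type, and -0.50 and called with the authors' ratios. NOP15, a large subunit RNA-binding factor, was the least lowered of the group's called genes at -0.54.

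Of the 3 maturation and export genes, NUG1, a nucleolar GTPase, was at -1.22 and NMD3, the adaptor for nuclear export of the large subunit, at -0.72. SDA1, a late factor needed for export of the large subunit, was the least lowered of all called members. It read -0.17 and -0.20 in starved wild type, against 0.38 and 0.34 (untagged), 0.25 and 0.04 (H3-HA), and 0.33 and 0.16 (H3-T7) in growing cells. The starved arrays were below all others by a small margin, and the change was -0.43 ± 0.06 (adjusted p = 4.53e-05), or 1.35-fold.

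**Figure D2:**
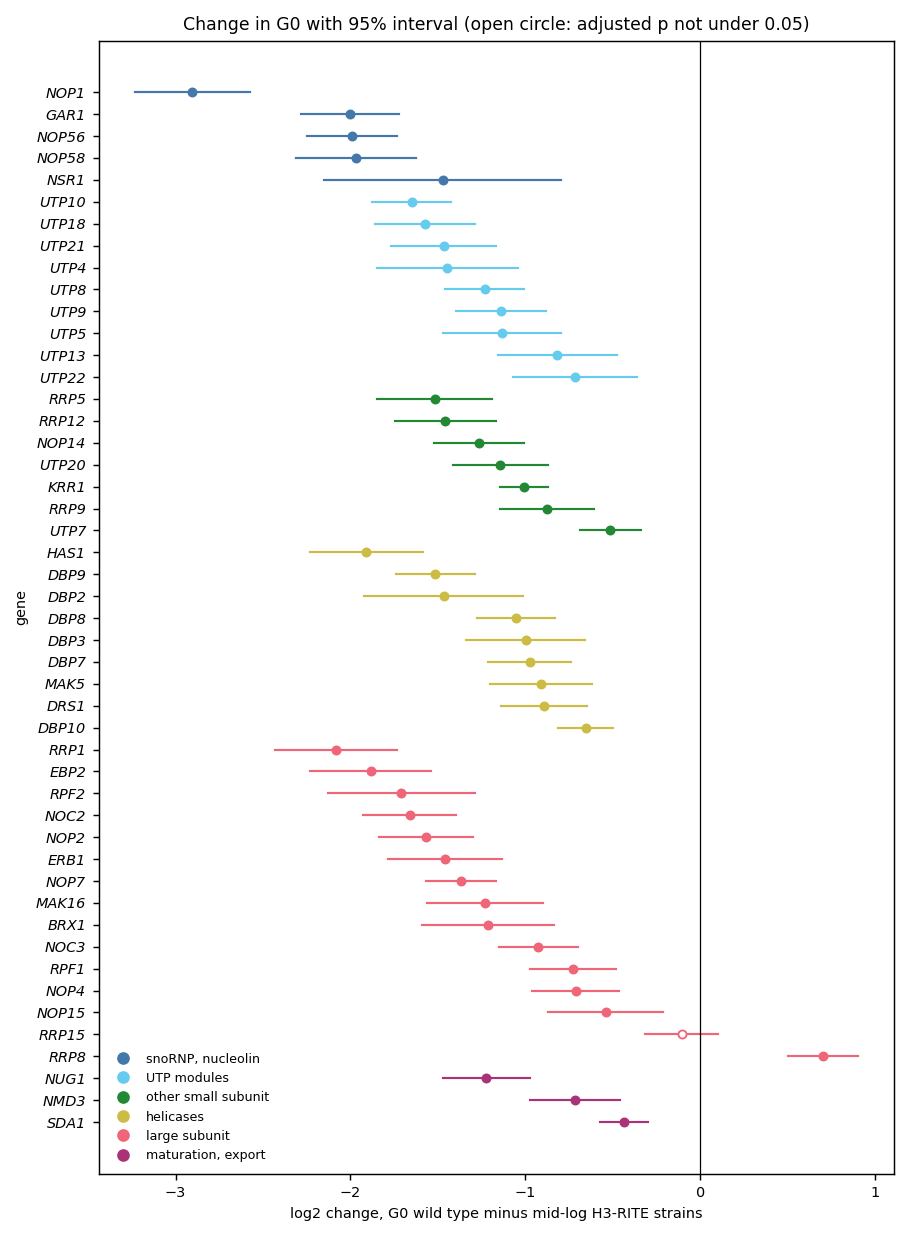
Change in starved wild type relative to the 3 mid-log RITE strains (log2, points) with 95% intervals (lines) for the 48 genes, ordered by change within each role and coloured by role. NOP1 lies lowest at -2.90, RRP8 alone lies above 0 with its whole interval, and RRP15, drawn open, is the gene whose interval spans 0.

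Without single arrays 46 to 47 genes were called in either direction, and the median then ran from -1.42 to -1.02. Against the mid-log H3-HA strain alone the median was -1.11, with 45 genes called lower and 1 higher, where 35.6% of all probes were called lower and 36.7% higher. Against the untagged strain alone it was -1.39, with 46 called lower and 1 higher, where 37% of all probes were called lower and 39.3% higher. Over all strains, 45 of the 48 genes were lower on each of the 16 G0 arrays than on each of the 20 mid-log arrays of either background; 26% of all probes were lower in this way, and the members that were not were RRP8, RRP15 and NOP15. The growth-state markers (9 genes, HSP12 and HSP26 among them, that rise when cells starve) had array means of 3.25 to 3.85 in G0, 0.38 to 1.77 in RITE and -0.13 to 0.50 in NuB4. All 9 were called higher in starved wild type, with a median of 1.95. None of the marker genes is a ribosome biogenesis gene, and their part in the members' values was not tested.

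Other genes of the same machinery were counted for comparison, from lists set up with earlier results known. Of 94 further ribosome biogenesis genes on the arrays 89 were called lower and 0 higher, with a median of -1.03. The lowest were SRP40, a nucleolar chaperone of snoRNPs, at -2.18, SNU13, which binds box C/D RNAs, at -2.16, and NOP13 at -1.90. The highest were REH1 at 0.17, NOP10 at 0.01 and RIO1 at -0.01, none of them called. All 7 RNA polymerase I genes were called lower, with a median of -1.71. Of 120 ribosomal protein genes 103 were called lower and 2 higher, with a median of -0.89. In this comparison 38.2% of all probes were called lower and 40% higher, and regulators of these genes were also called in both directions. SCH9, the kinase that conveys TORC1 signals, changed by -0.56 and IFH1, the co-activator of ribosomal protein genes, by -0.47. TOR1, TOD6 and SIN3 were called lower as well, at -0.46, -0.42 and -0.22. STB3, DOT6, SFP1 and FHL1 were called higher, by 0.76, 0.70, 0.61 and 0.21. The list holds both activators and repressors of ribosome biogenesis transcription, and whether the direction of a regulator went with its role was not tested. HMO1, RPD3, UME6 and CRF1 were not called.

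Some members lie close together in the genome, and the changes of such pairs are given here without a comparison with other gene pairs. RRP1 (YDR087C) and RRP8 (YDR083W) are on chromosome IV with 3 annotated genes between them and had changes of -2.08 and 0.70. GAR1 and RPF1 are adjacent on chromosome VIII and had -2.003 and -0.73. DBP8 and NMD3, also adjacent on chromosome VIII, had -1.05 and -0.72. DBP2 and NOP15, with 1 gene between them on chromosome XIV, had -1.47 and -0.54. Promoter sequences were not analysed here.

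Growing cells with a tag on histone H3 had slightly lower ribosome biogenesis ratios than growing cells with untagged H3. In the H3-HA strain all 48 genes were below the untagged strain by their mean, and 32 were called lower and 0 higher, while 19.3% of all probes were called lower and 25.3% higher. The median was -0.25, a 1.19-fold lower ratio, against -0.01 over all probes. For 44 members both H3-HA arrays lay below both untagged arrays, as they did for 27.8% of all probes. By role, 12 of 15 large subunit factors, 6 of 9 UTP genes, 5 of 9 helicases, 3 of 7 other small subunit genes, 3 of 5 snoRNP genes and 3 of 3 maturation and export genes were called.

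Most of these calls rested on single arrays. Without replicate b of the untagged strain 2 genes were called, and without replicate b of the H3-HA strain 3. Without replicate a of the H3-HA strain 46 were called. The median stayed below 0, from -0.38 to -0.11. Calls over all probes were not counted in these fits, so the counts show only that the calls depended on single arrays. The growth-state markers moved with the tags: 7 of the 9 were called higher in H3-HA, with a median of 0.65. Their mean over the 9 genes was 0.38 and 0.69 on the untagged arrays, 1.12 and 1.77 in H3-HA, and 1.45 and 1.62 in H3-T7. HSP26, a small heat shock protein, read 0.44 and 0.23 without a tag, 2.02 and 3.29 with HA, and 2.45 and 2.35 with T7. Whether the tags or a difference in growth state between the cultures went with the lower ribosome biogenesis values was not tested.

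DBP2 had the lowest change in H3-HA: the untagged arrays read 0.53 and 0.61 and the H3-HA arrays 0.15 and -0.14. The groups did not overlap, and the change was -0.56 ± 0.11 (adjusted p = 0.00176), but adjusted p = 0.0570 without replicate b of the untagged strain. UTP20, a large protein of the small subunit processome, read -0.09 and 0.15 untagged and -0.23 and -0.52 with HA. The change was -0.40 ± 0.10 (adjusted p = 0.00751), with no call without replicate b of either strain (adjusted p = 0.191 and 0.174). NOP4, an RNA-binding large subunit factor, read 0.06 and 0.17 untagged and -0.13 and -0.42 with HA. Its change was -0.39 ± 0.09 (adjusted p = 0.00338), and it also lost the call without replicate b of either strain (adjusted p = 0.100 and 0.081). SDA1 read 0.38 and 0.34 untagged and 0.25 and 0.04 with HA, a change of -0.21 (adjusted p = 0.0104), likewise not called without replicate b of the untagged (0.196) or H3-HA strain (0.127).

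The members with the smallest differences were not called. DBP3, a large subunit helicase, read 0.02 and 0.19 untagged and 0.16 and -0.11 with HA, a difference of -0.08 (adjusted p = 0.494). KRR1, required for small subunit RNA, read 0.22 and 0.32 against 0.28 and 0.09, a difference of -0.09 (adjusted p = 0.387). NOC3, which acts in large subunit assembly and in replication initiation, read -0.07 and 0.13 against -0.03 and -0.16, a difference of -0.12 (adjusted p = 0.279). The arrays of the 2 strains overlapped for all 3 genes.

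In the H3-T7 strain 22 genes were called lower and 0 higher, where 15.4% of all probes were called lower and 22.7% higher. The median was -0.20 and 47 genes were below the untagged strain. The exception was KRR1, which read 0.43 and 0.41 with T7 against 0.22 and 0.32 untagged, a difference of 0.14 that was not called (adjusted p = 0.186). For 39 members both H3-T7 arrays lay below both untagged arrays, as for 26.7% of all probes. DBP2 was again lowest, with 0.25 and 0.02 in H3-T7 and a change of -0.43 ± 0.11 (adjusted p = 0.00979). This call was lost without replicate b of the untagged strain (adjusted p = 0.195) or of H3-T7 (0.0865). RRP12, a factor for export of both subunits, read -0.40 and -0.18 against -0.11 and 0.24, a change of -0.36 (adjusted p = 0.0397). MAK5, a large subunit helicase, read -0.24 and -0.06 against 0.14 and 0.19, a change of -0.32 (adjusted p = 0.0434). The smallest called changes were -0.20 in UTP4, -0.18 in NOP58 and -0.18 in RRP9, and in each both H3-T7 arrays lay below both untagged arrays. SDA1 was at -0.11 (adjusted p = 0.142).

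As with HA, the T7 counts depended on the untagged strain: 0 genes were called without its replicate b, 2 without replicate a of H3-T7, 12 without replicate b of H3-T7 and 28 without replicate a of the untagged strain, with medians from -0.28 to -0.11. Here too, calls over all probes were not counted without single arrays. The growth-state markers were called higher for 8 of 9, with a median of 0.85. Both tag comparisons use the same 2 untagged arrays, so their calls are not independent. Called in both were 16 members, of the 32 with HA and the 22 with T7. The overlap over all probes was not counted, so these 16 are no result about the members. In the direct comparison of H3-HA with H3-T7 0 of the 48 genes were called (limma; 4 at an unadjusted p under 0.05, as were 18.7% of all probes), where 1.57% of all probes were called lower and 1.72% higher. The median difference was -0.06, and it ran from -0.19 to 0.07 without single arrays.

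**Figure D3:**
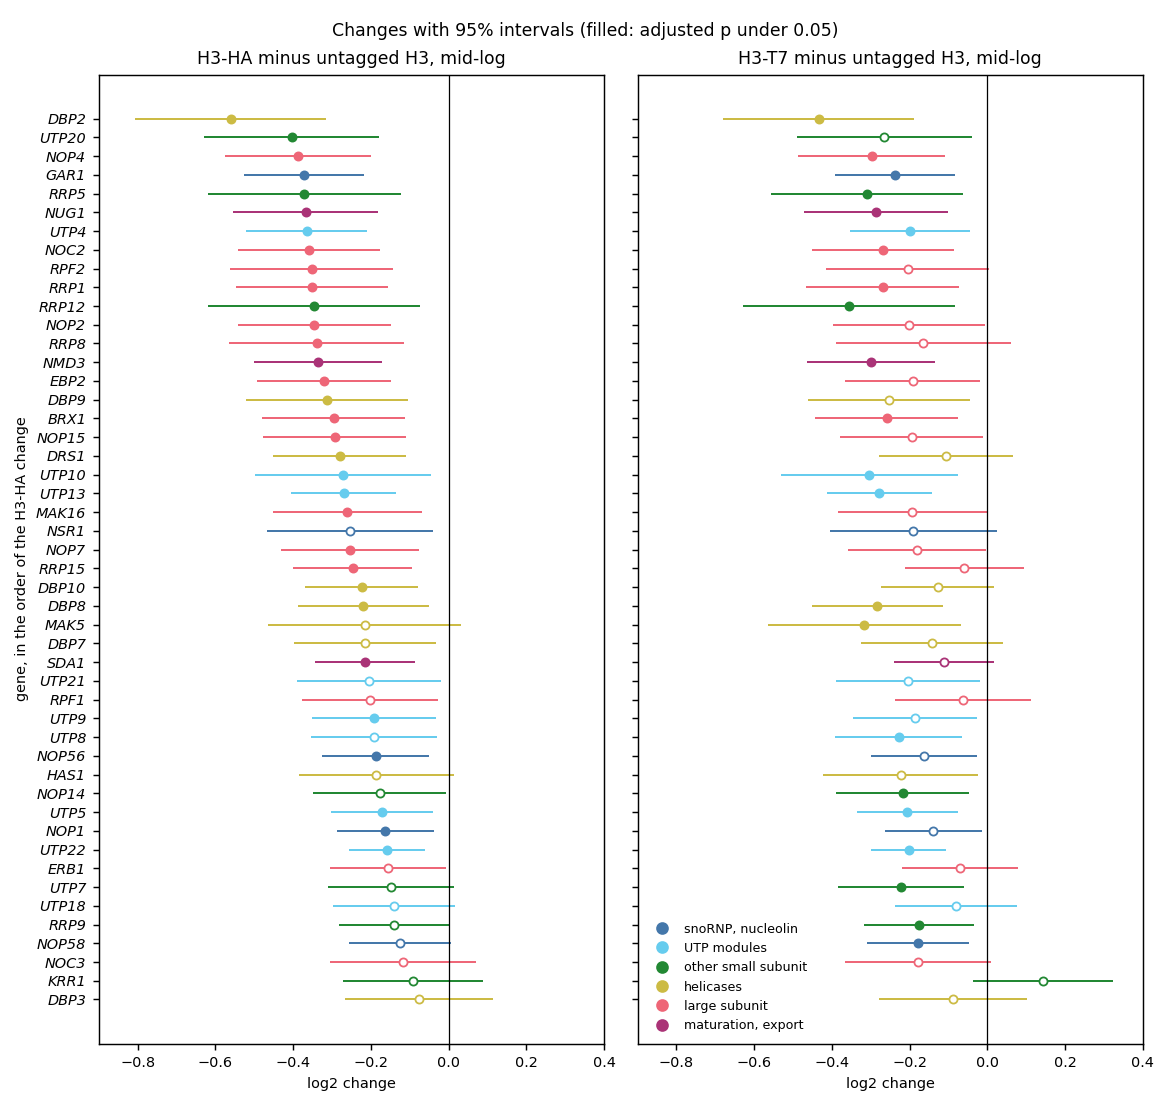
Change in H3-HA (left) and H3-T7 (right) relative to untagged H3 in mid-log cells (log2, points, with 95% intervals), for the 48 genes in the order of the H3-HA change and coloured by role; filled points have an adjusted p under 0.05. All 48 points on the left and 47 on the right are below 0, and KRR1 is the point above 0 on the right.

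Other lists of the machinery were counted in the same comparisons. Of all probes 19.3% were called lower and 25.3% higher with HA, and 15.4% and 22.7% with T7. In H3-HA 61 of 94 other ribosome biogenesis genes were called lower (median -0.24), 5 of 7 RNA polymerase I genes (-0.21) and 31 of 120 ribosomal protein genes (-0.10). In H3-T7 19 of the 94 genes were called lower (-0.16), 2 of the 7 (-0.17) and 27 of the 120 (-0.08, with 3 called higher). The counts of ribosomal protein genes, and that of the 94 genes in H3-T7, were not far above the shares of all probes. Of the 13 regulators, HMO1, FHL1 and CRF1 were called lower with both tags. RPD3 and SFP1 were called lower with HA only, and TOD6, DOT6 and STB3 with T7 only. No regulator was called higher with a tag. HMO1, the high mobility group protein of ribosomal DNA and ribosomal protein promoters, had the lowest change, -0.43 with HA and -0.64 with T7. It was also called in H3-HA against H3-T7, at 0.21 (limma, adjusted p = 0.0247).

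Among the starved strains the H4 tail mutants had the lowest members' medians by a small margin, and SDA1 was called lower in both. The median over strain means was -1.60 in H4K5,12R and -1.55 in H4K5,12Q, followed by -1.47 in hif1Δ, -1.46 in hat1Δhif1Δ, -1.36 in hat2Δ, -1.32 in hat1Δ and -1.24 in both hat2Δhif1Δ and wild type. On single arrays the members' median ran from -1.67 to -1.47 in the H4 mutants and from -1.49 to -1.07 in the other strains, so the ranges overlapped. NOP1 was the lowest and RRP8 the highest member by mean in each of the 8 starved strains. Relative to starved wild type 1 gene was called lower in H4K5,12Q and 3 in H4K5,12R, with 0 higher in both. Over all probes 0.376% were called lower and 0.219% higher in H4K5,12Q, and 1.63% and 1.61% in H4K5,12R. The medians were -0.26 and -0.34, against 0.01 and 0.00 over all probes, and without replicate b of wild type they were -0.10 and -0.21. At an unadjusted p under 0.05 there were 16 and 25 members, where 16.8% and 22.1% of all probes were. For 23 and 30 members both mutant arrays lay below both wild-type arrays, as for 18% and 21.9% of all probes. The 2 comparisons share the wild-type arrays. SDA1 and DBP2 had been singled out as lower in these mutants from earlier results of the same arrays, so their p-values below describe these arrays and are not independent evidence.

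SDA1 was steady over the other starved strains and lower in the H4 mutants. It read -0.01 and -0.26 in hat1Δ, -0.15 and -0.24 in hat2Δ, -0.24 and -0.12 in hif1Δ, -0.25 and -0.39 in hat1Δhif1Δ, and -0.10 and -0.17 in hat2Δhif1Δ. In H4K5,12Q it read -1.03 and -1.04, and in H4K5,12R -1.13 on both arrays, all 4 below each of the 12 other G0 arrays. The change from wild type (-0.17 and -0.20) was -0.85 ± 0.08 in H4K5,12Q (adjusted p = 0.00443), a 1.80-fold lower ratio. It was -0.95 ± 0.08 in H4K5,12R (adjusted p = 0.00113), a 1.93-fold lower ratio. In H4K5,12R the call held without any one array, and in H4K5,12Q it was lost without replicate b of that strain (adjusted p = 0.0780). Between strain means SDA1 had an SD of 0.42, against an error of 0.05 for one strain mean.

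DBP2 was low in the H4 mutants but spread widely among the other starved strains. It read -1.94 and -2.56 in H4K5,12Q and -2.14 and -2.96 in H4K5,12R. The wild type read -1.39 and -1.07, hat1Δ -1.05 and -1.98, hat2Δ -1.89 and -1.66, hif1Δ -1.89 and -2.26, hat1Δhif1Δ -1.93 and -2.32, and hat2Δhif1Δ -1.63 and -2.01. The H4 mutants were below wild type but overlapped with arrays of hat1Δ, hif1Δ, hat1Δhif1Δ and hat2Δhif1Δ. The change was -1.32 ± 0.27 in H4K5,12R (adjusted p = 0.0314), a 2.50-fold lower ratio, and -1.02 ± 0.27 in H4K5,12Q, which was not called (adjusted p = 0.118). The H4K5,12R call was lost without replicate a (adjusted p = 0.0899) or b (0.210) of that strain or replicate b of wild type (0.218).

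UTP9, of the UTP-A module, was the other gene called in H4K5,12R and is named after its values were seen. It read -1.43 and -1.11 in wild type, -1.78 and -1.94 in H4K5,12Q, and -1.90 and -2.01 in H4K5,12R. The change was -0.68 ± 0.15 in H4K5,12R (adjusted p = 0.0401), and leaving out any one array of either strain ended the call (adjusted p = 0.0716 to 0.262). NOP58 was among the lowest in H4K5,12Q, with -3.01 and -3.20 against -2.50 and -2.09, a difference of -0.81 (adjusted p = 0.111). NSR1 read -2.39 and -2.54 in H4K5,12R against -1.74 and -0.89, a difference of -1.15 (adjusted p = 0.144) with the wild-type arrays far from each other.

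At the upper end, no member was called. ERB1 read -0.71 and -1.06 in H4K5,12Q against -1.57 and -1.21 in wild type, a difference of 0.51 (adjusted p = 0.229), while it read -1.33 and -1.74 in H4K5,12R. RRP8 read 0.87 and 0.85 in H4K5,12Q and 0.82 and 0.91 in H4K5,12R, above wild type by 0.24 (adjusted p = 0.242) and 0.25 (0.17). UTP20 overlapped with wild type (-1.49 and -1.18) in both mutants, with -1.18 and -1.33 in H4K5,12Q and -1.16 and -1.40 in H4K5,12R. RRP1 read -1.85 and -2.16 in H4K5,12R, a difference of 0.01 from wild type.

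**Figure D4:**
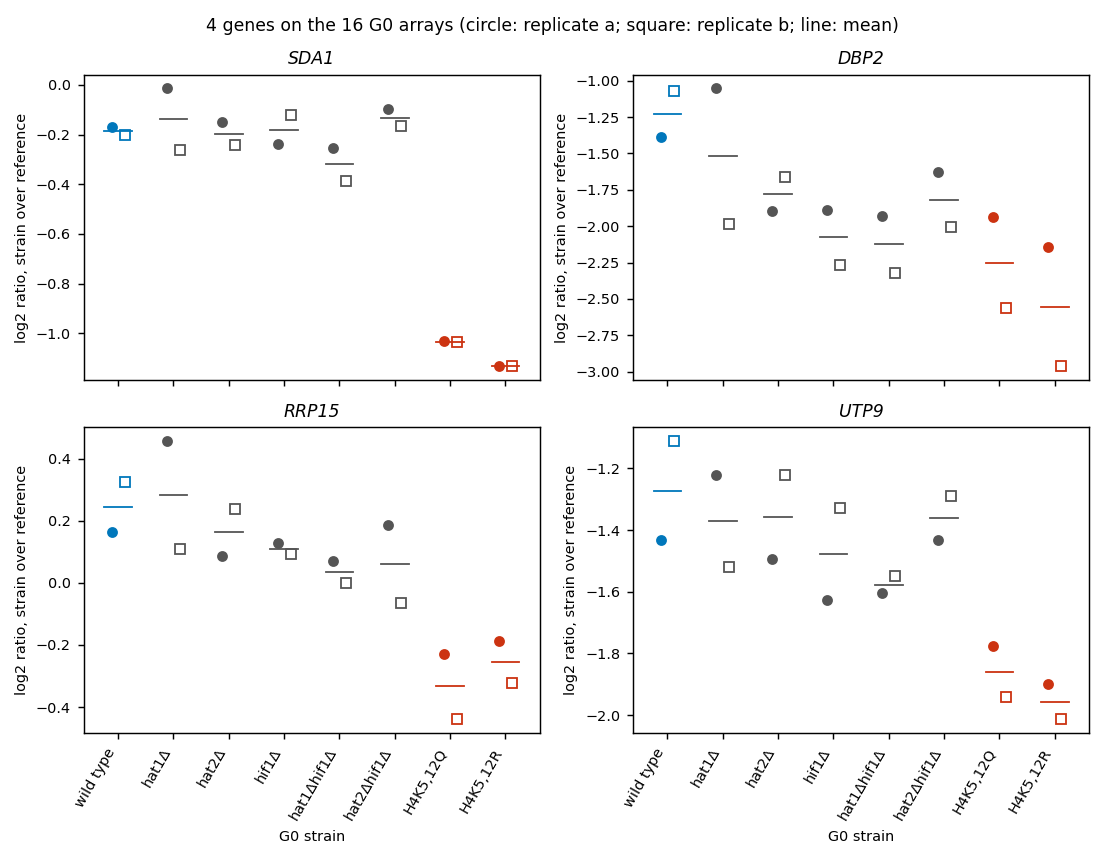
Log2 ratio of strain over reference for SDA1, DBP2, RRP15 and UTP9 on the 16 G0 arrays (circles, replicate a; squares, replicate b; lines, strain means). For SDA1, RRP15 and UTP9 the 4 H4 mutant arrays lie below the 12 others, while for DBP2 they overlap with them.

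By the ATG33 spot the H4 mutants and starved wild type were on arrays of different sets. Such a difference cannot be told apart from the mutations in the comparison above. Starved hat1Δhif1Δ and hat2Δhif1Δ, which share the inferred array set of the H4 mutants, were also used as the control. They lack HIF1 and HAT1 or HAT2, so this comparison also holds the loss of these genes. Against them 1 gene was called lower in H4K5,12Q and 3 in H4K5,12R. Of all probes 1.86% and 3.46% were called lower and 1.3% and 3.35% higher. SDA1 was called in both, at -0.81 (adjusted p = 0.00267) and -0.91 (0.000488). The other 2 genes in H4K5,12R were UTP10 (-0.42, adjusted p = 0.0425) and KRR1 (-0.26, 0.0408). DBP2 was not called against these controls, at -0.28 (adjusted p = 0.607) and -0.58 (0.166), nor was UTP9 in H4K5,12R, at -0.49 (0.0531). The control strains were themselves low in DBP2, with means of -2.13 in hat1Δhif1Δ and -1.82 in hat2Δhif1Δ against -1.23 in wild type. The members' medians were -0.19 and -0.27. In the starved strains the growth-state markers had array means of 3.33 and 3.64 in wild type, 3.59 and 3.85 in H4K5,12Q, and 3.43 and 3.70 in H4K5,12R, and their part was not tested.

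Over the 16 starved arrays, 9 members (18.8%) had all 4 H4 mutant arrays below all 12 others, and 0 had them above; 2.21% of all probes lay below in this way and 2.52% above. Besides SDA1 and UTP9 these were UTP5, UTP7, KRR1, MAK16, NOP7, NOP15 and RRP15, a set read off after the values were seen. RRP15 ranged from -0.44 to -0.19 on the H4 mutant arrays and from -0.07 to 0.46 on the others. Its differences from wild type were -0.58 in H4K5,12Q (adjusted p = 0.0672) and -0.50 in H4K5,12R (0.0554), and with the authors' normalized ratios they were -0.16 and -0.17. In the direct comparison of H4K5,12Q with H4K5,12R 0 members and 0% of all probes were called (limma; 1 member at an unadjusted p under 0.05, as were 4.18% of all probes), with a median difference of 0.07. The widest difference was that of ERB1, 0.65 (adjusted p = 0.680). In other lists, 1 of 94 other ribosome biogenesis genes was called lower in H4K5,12Q (ENP2, -0.66, adjusted p = 0.0202) and 2 in H4K5,12R. Of 120 ribosomal protein genes and of 13 regulators 0 were called. At an unadjusted p under 0.05 there were 6 and 1 in H4K5,12Q, and 5 and 3 in H4K5,12R. Over all probes 0.376% and 1.63% were called lower, and 16.8% and 22.1% had an unadjusted p under 0.05.

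Loss of the NuB4 subunits in starved cells gave no called member (limma). By the ATG33 spot the arrays of the double mutants were of another set than those of wild type, and this cannot be told apart from the deletions. Relative to wild type the single mutants hat1Δ, hat2Δ and hif1Δ had medians of -0.04, -0.06 and -0.15, and the double mutants hat1Δhif1Δ and hat2Δhif1Δ of -0.14 and -0.02. In this order 0, 1, 3, 4 and 2 members had an unadjusted p under 0.05, as had 4.13%, 7.33%, 11.1%, 10.8% and 11.3% of all probes. Without single arrays the medians ran from -0.33 (hif1Δ) to 0.21 (hat1Δ). Called lower over all probes were 0.0157%, 0.0157%, 0.329%, 0.047% and 0.0626%, and called higher 0%, 0%, 0%, 0.0157% and 0.0939%. In a fit of all 36 arrays 2 members were called lower in hif1Δ and 2 in hat1Δhif1Δ, where 4.09% and 3.33% of all probes were called lower. DBP2 was the member furthest below wild type in 4 of the 5 strains (NSR1 in hif1Δ), with differences of -0.29, -0.55, -0.84, -0.89 and -0.59, all against the same wild-type arrays. Those of SDA1 were 0.05, -0.01, 0.01, -0.13 and 0.05. The error was large here: the replicates of starved wild type differed by 0.35 on average over the members, and those of hat1Δ by 0.39.

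In mid-log cells each deletion was compared on 3 matched backgrounds of the NuB4 series, 6 arrays with and 6 without it. The NuB4 series holds no wild-type strain, so each deletion was compared only in strains that already lacked another subunit. With HAT1 deleted 1 member was called higher and 0 lower, where 2.32% of all probes were called higher and 2.38% lower, and the median was 0.05. The gene was UTP13, of the UTP-B module. It read 0.27 and 0.14 in hat1Δhat2Δ, 0.23 and 0.12 in hat1Δhif1Δ, and 0.22 and 0.07 in the triple deletion. In hat1Δ, which was not part of the comparison, it read 0.16 and 0.10. Without the HAT1 deletion it read 0.09 and 0.08 in hat2Δ, 0.21 and 0.04 in hif1Δ, and -0.05 and -0.02 in hat2Δhif1Δ. The groups overlapped, the change was 0.12 (adjusted p = 0.0456), and the count moved between 0 and 11 when single arrays were left out, with 11 without replicate b of hat2Δhif1Δ and 10 without replicate a of hif1Δ. Deletion of HAT2 and of HIF1 gave 0 called members each (limma; 2 and 6 at an unadjusted p under 0.05, as were 4.6% and 15.2% of all probes), with medians of -0.03, where 0.0157% and 0.125% of all probes were called lower and 0% and 0.204% higher. For HIF1, 4 members were called without replicate b of hat2Δhif1Δ. Calls over all probes were not counted in the fits without single arrays.

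The mid-log deletion strains were also alike in level. Their members' medians over the reference ran from 0.14 in hat2Δhif1Δ to 0.32 in hat1Δhat2Δ, and those of the mid-log RITE strains were 0.13 (untagged), -0.12 (H3-HA) and -0.07 (H3-T7). EBP2, a large subunit factor, or NOP15 was the highest member in every mid-log strain, at 0.49 to 0.84. Between strain means the members' median SD was 0.16 in G0, 0.06 in NuB4 and 0.13 in RITE, against a median error of one strain mean of 0.12, 0.06 and 0.09. In G0 the SD was smallest for UTP18 (0.04) and largest for NSR1 (0.44).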

How the data were processed

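The authors deposited scanner intensities of both channels for 36 dual-channel arrays, which hold 15552 spots with 2 spots per yeast probe. A deposited table of the authors' normalized log2 ratios was used as an alternative: its columns had medians of -0.0019 to 0.041, ran as strain over reference and correlated with the loess ratios used here at 0.887 to 0.990, while their exact normalization settings are not given in the sources used here. A further deposited table holds log2 changes and p-values of the study's own comparisons and was not used. The submitters' processing notes name limma 2.12.0.

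In limma 3.58.1 (R 4.3.3), the background was removed by normexp with an offset of 50, each array was then loess-normalized with control spots at weight 0, and spots of a probe were averaged. Ratios were turned to strain over reference by the dyes in the labels. The series' design text gives the opposite dyes for the first hybridisation, and the deleted genes fit the labels. A linear model with a dye effect per experiment was fitted to 22 arrays (G0 and RITE), 20 arrays (tags), 16 arrays (G0 mutants) or 14 arrays (matched deletions), in 15 comparisons. Benjamini-Hochberg adjustment ran over all 6388 probes, at a threshold of 0.05. The precision is limited by 2 arrays per strain. The fitting script was checked on data with known answers.

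The dye effect is also the replicate letter, so it pairs same-lettered arrays: deviations of such arrays from their group means correlated at 0.36 to 0.77 in NuB4, -0.22 to 0.76 in G0 and 0.15 to 0.53 in RITE. The members, lists and roles were chosen with earlier results of these data known. Arrays were given in full for the 3 lowest and 3 highest members of 4 comparisons, and for SDA1 and DBP2. Gene order is from the RefSeq table of R64. RRP36 and SPG1 were not analysed here, and DBP4 was taken under its array name HCA4. Promoter motifs were planned but not analysed here.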

Additional observations from a re-analysis of the deposited data

How the results depend on the processing

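Each comparison was recomputed without background correction, and with median centring, print-tip loess, the authors' ratios or spot medians (chosen after seeing the data). It was also recomputed without the replicate block, without dim probes, with all 36 arrays in 1 fit and without single arrays. A further setting, named the methods' rule below, took fold above 1.7 and adjusted p under 0.01. The methods themselves name no adjustment of p and count after removal of genes variable in wild type. The starvation count stayed between 46 and 47 without single arrays, and was 47 without the replicate block. For H3-HA the count of 32 fell to 16 without the replicate block, 6 with all arrays in one fit and 0 by the methods' rule, and ran from 2 to 46 without single arrays. For H3-T7 the count of 22 became 37 with median centring, 12 with spot medians, 6 without the block, 0 with all arrays and 0 by the methods' rule, and ran from 0 to 28 without single arrays. H3-HA against H3-T7 ran from 0 to 10. For H4K5,12Q the count of 1 became 3 with print-tip loess, 4 with the authors' ratios and 12 with all arrays, and ran from 0 to 1 without single arrays. For H4K5,12R the count of 3 became 6 with print-tip loess, 6 with the authors' ratios, 22 with all arrays, and 1 with spot medians, 1 without the block and 1 by the methods' rule; it ran from 1 to 2. Starved hif1Δ and hat1Δhif1Δ each had 2 with all arrays. For HAT1 the count of 1 became 2 without background correction, 2 without dim probes and 0 under the other 7 settings, and ran from 0 to 11; HIF1 ran from 0 to 4. Calls over all probes under these settings were counted only where given above, so whether a shift was particular to the members cannot be told. The cause of these shifts was not tested. The replicate block decided 4 comparisons in this way and moved no other count by more than 1.5 times.

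Single genes changed sign only where their value was near 0 and not called. RRP15 in starvation ran from -0.25 to 0.038 without single arrays (0.038 without replicate a of starved wild type) and was 0.040 against H3-HA alone. In H3-HA, KRR1 was 0.0094 with print-tip loess and 0.0039 with the authors' ratios, and without single arrays KRR1 ran from -0.20 to 0.022 (0.010 without replicate b of the untagged strain), DBP3 from -0.29 to 0.13 (0.051) and NOC3 from -0.26 to 0.024. UTP20 in H4K5,12Q ran from -0.11 to 0.27 and was -0.015 against the double mutants. In H4K5,12R it ran from -0.14 to 0.25, with -0.070 without replicate a of that strain, and was -0.043 against the double mutants. RRP1 in H4K5,12R was -0.016 with median centring and ran from -0.24 to 0.27, with -0.15 without replicate a of that strain.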
